A study of Drosophila melanogaster with 5 samples.

Results

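The ecdysone receptor, its early response genes and some later genes were followed in a map of H3K18ac. This mark, the acetylated form of lysine 18 of histone H3, was mapped in wing imaginal discs of *Drosophila melanogaster* larvae of the third instar. The 9 genes were picked by identifier, with earlier results of these data known. They are the receptor genes EcR and usp, the early genes br, Eip74EF, Eip75B and Eip78C, and the later genes Hr3, ftz-f1 and Eip93F. Of the 9, 3 (EcR, br and Eip74EF) own 10 of the 2626 peaks in the deposited table. All groups were discs of the w1118 genotype from male and female larvae, and the same antibody was used in each. Discs in the etomoxir group (2 libraries) were explanted for 2 h in 500 µM etomoxir, a drug that blocks the entry of long-chain fatty acids into mitochondria. The control group (3 libraries) joined 2 libraries of discs cultured for 2 h without the drug with 1 library of discs taken directly from the larva, so culture and drug are not fully separated between the groups. The culture medium of the study contains ecdysone itself, along with juvenile hormone and insulin, so the etomoxir discs and the cultured controls were given the hormone for 2 h and the directly dissected controls were not. What this added hormone did to the levels below cannot be told apart from culture, since the table joins all controls in 1 mean. The question was at which genomic sites the mark depends on fatty acid β-oxidation. The mark was mapped by Cut&Run, in which a nuclease tethered to the antibody releases the DNA around the mark for sequencing. The table holds the peaks that differed between the groups at a false discovery rate (FDR) under 0.05, with the authors' mean level per group, so no value per library and no spread between replicates can be given, and a peak that did not differ is not in it. Levels below are log2 mean normalized read counts of a peak, and differences are etomoxir minus control on that scale. Read totals per library are not in the table, so the depth behind each mean cannot be read from it. By the study's reporting statement, a library of cultured controls held far more unique reads than any other, and its share in the results was not tested. The table cannot check the identity of the tissue, because it holds only peaks that differed. Lower peaks were assigned to 7.89% of all protein-coding genes, while 6 of 8 genes taken as markers of the disc epithelium (vg, ap, sd, dpp, en and ci) had listed peaks, nub and wg did not, and none of 3 haemocyte markers had one. In addition 1 of 4 markers of muscle precursors (Mef2) and 2 of 3 tracheal markers (trh and tyn) had a listed peak.

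Ecdysone, in its active form 20-hydroxyecdysone, is the steroid hormone that times moulting and metamorphosis. It binds EcR, a nuclear receptor that works as a dimer with Usp, and the dimer switches on a small set of early genes that themselves encode transcription factors. These early factors, among them Broad, the ETS protein E74 and the nuclear receptors E75 and E78, then act on later genes such as Hr3, ftz-f1 and Eip93F. In the wing disc the hormone pulse at the end of larval life drives the change from growth to eversion and differentiation, and the discs used here came from wandering larvae, the stage of that pulse, beside the ecdysone in the medium of the cultured ones.

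The sequences below show the sites on which the account of br, Eip74EF and Eip75B rests, read from the RefSeq copy of the dm6 genome in the direction of transcription. The first is the start region of the distal br transcripts, chrX:1574882-1575181 on the plus strand, with the 18 bases from the start of br-RN to the start of br-RO in capitals. The other 3 are the middle 300 bases of the peak that fell most at br (chrX:1578547-1578846, plus strand), of the peak that fell most at Eip74EF (chr3L:17577793-17578092, minus strand) and of the single peak inside Eip75B (chr3L:18014352-18014651, minus strand). Capitals in these mark GAGAG or its complement CTCTC, the element read by the GAGA factor. The half-site AGGTCA of the ecdysone receptor was searched as well and occurs in none of the 4.
br distal start: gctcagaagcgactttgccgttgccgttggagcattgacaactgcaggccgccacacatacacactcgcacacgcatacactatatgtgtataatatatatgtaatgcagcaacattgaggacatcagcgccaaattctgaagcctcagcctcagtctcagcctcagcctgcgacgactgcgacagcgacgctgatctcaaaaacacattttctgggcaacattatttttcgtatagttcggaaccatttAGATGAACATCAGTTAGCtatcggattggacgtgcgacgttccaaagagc
br peak centre: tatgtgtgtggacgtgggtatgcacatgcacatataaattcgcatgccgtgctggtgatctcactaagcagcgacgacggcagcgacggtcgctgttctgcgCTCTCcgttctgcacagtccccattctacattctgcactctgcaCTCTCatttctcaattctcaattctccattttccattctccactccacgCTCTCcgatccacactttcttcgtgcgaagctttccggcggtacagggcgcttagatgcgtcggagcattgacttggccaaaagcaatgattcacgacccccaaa
Eip74EF peak centre: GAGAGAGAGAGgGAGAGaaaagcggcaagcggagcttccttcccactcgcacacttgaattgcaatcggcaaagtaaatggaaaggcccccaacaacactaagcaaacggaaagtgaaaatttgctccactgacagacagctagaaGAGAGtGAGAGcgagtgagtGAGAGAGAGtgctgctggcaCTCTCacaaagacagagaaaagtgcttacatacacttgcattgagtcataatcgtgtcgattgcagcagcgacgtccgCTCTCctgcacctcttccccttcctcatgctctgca
Eip75B peak centre: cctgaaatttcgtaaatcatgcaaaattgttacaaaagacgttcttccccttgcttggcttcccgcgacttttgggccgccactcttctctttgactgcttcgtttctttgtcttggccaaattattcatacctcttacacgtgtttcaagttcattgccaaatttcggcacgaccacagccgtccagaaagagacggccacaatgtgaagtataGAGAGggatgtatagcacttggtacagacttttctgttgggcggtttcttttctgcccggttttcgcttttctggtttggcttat

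H3K18ac fell after etomoxir at every one of the 10 peaks assigned to the 9 genes. Of all 2626 listed peaks, 83.5% were lower, so a set of 10 lower peaks is read against that share. EcR had 3 peaks, br 4 and Eip74EF 3, while usp, Eip75B, Eip78C, Eip93F, Hr3 and ftz-f1 are not listed. The 10 peaks had a median difference of -1.22, with a 95% interval from -1.62 to -1.0 (binomial, over the 10 peaks), which leaves 42.9% of the control level. A further 3 lower peaks lie inside EcR, Eip74EF and Eip75B but were assigned to other genes, because assignment followed the closest transcription start. With these, 4 of the 9 genes hold 13 lower peaks, with a median of -1.27. The interval takes the 10 peaks as independent draws, although they lie in 3 genes and all had passed the FDR filter. It does not cover the spread between discs.

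**Figure D1:**
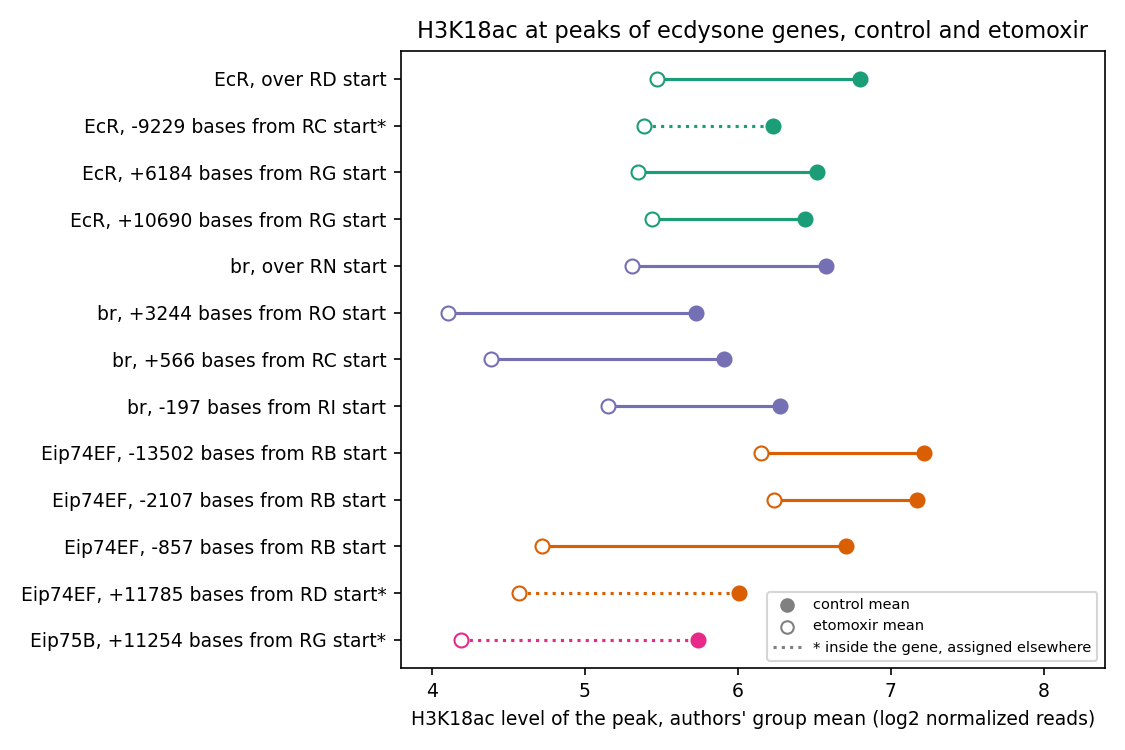
H3K18ac level of the 13 peaks in or assigned to ecdysone genes, as the authors' group means in log2 normalized reads, with control filled and etomoxir open. Each row is 1 peak, named by its distance in bases to the nearest start of the gene, and dotted lines with an asterisk mark the 3 peaks assigned elsewhere. Every etomoxir mean lies left of its control mean, and the longest line is the Eip74EF peak 857 bases before the RB start.

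How common such peaks are depends on gene size. A lower peak was assigned to 7.89% of the 13986 protein-coding genes in the annotation, against 3 of the 9 ecdysone genes. Of these 9, however, 8 span 30 kb or more (usp, with 3514 bases, is the exception), and among the 671 protein-coding genes of that length 32.5% had a lower peak assigned. The matching count is 3 of 8 ecdysone genes (37.5%), close to the share of long genes. By overlap with the gene body the shares were 7.68% for all protein-coding genes and 42.5% for those of 30 kb or more, against 4 of 8 ecdysone genes. The limit of 30 kb was set after the lengths of the genes had been seen.

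EcR (FBgn0000546) encodes the hormone receptor and spans 2R from 6087873 to 6169087 on the minus strand, with 6 transcripts from 4 start sites. The peak over the start shared by EcR-RD and EcR-RE (6156394 to 6157283) had a level of 6.80 in the controls and 5.47 after etomoxir. The difference of -1.33 leaves 39.8% of the control mean, and the peak is among those with an FDR under 0.001. Both other peaks assigned to EcR lie in introns, 6184 and 10690 bases downstream of the start of EcR-RG. The nearer (6124776 to 6125657) went from 6.52 to 5.35, a difference of -1.17. The farther (6120171 to 6121151) went from 6.44 to 5.44, a difference of -1.0. The fourth peak inside the gene (6141151 to 6141798) went from 6.23 to 5.39, a difference of -0.84, and was assigned to tRNA:Arg-ACG-1-1, a tRNA gene nested in an EcR intron, from whose start it lies 367 bases away. The 4 etomoxir means of EcR span 5.35 to 5.47, a narrower range than the 6.23 to 6.80 of the controls. No listed peak covers the other 3 starts, those of EcR-RA (the most upstream), of EcR-RG, and of EcR-RB with EcR-RC. For usp (FBgn0003964), which encodes the partner of EcR, the closest listed peak lies 7125 bases outside the gene.

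br (FBgn0283451) encodes the Broad proteins, zinc-finger transcription factors with a BTB domain whose isoforms are needed for entry into metamorphosis. The gene spans X from 1575132 to 1664869 and has 16 transcripts from 9 starts. Its 4 peaks form a distal and a proximal pair. In the distal pair, the peak of 1394 bases over the starts of br-RN and br-RO (1574980 to 1576373) fell from 6.58 to 5.31. This is a difference of -1.27, with an FDR under 0.001. The intronic peak 3244 bases downstream (1578393 to 1579001) fell from 5.73 to 4.11. Its difference of -1.62 was the largest of the 4 and left 32.5% of a control mean that was itself the lowest of the 4. Per kb of peak width, its control level was 6.45, against 6.1 at the wider peak over the distal starts. The start of 8 of the 16 transcripts, at 1612341, lies between the proximal peaks, 645 bases past the end of the first and 405 before the second, and is not covered by either. The first (1611078 to 1611696), inside the transcription unit of br-RC and 566 bases past its start, fell from 5.91 to 4.39, a difference of -1.52. The second (1612746 to 1613460), 197 bases before the start of br-RI, fell from 6.28 to 5.15, a difference of -1.13. All of br lies within Mur2B, a gene on the other strand from 1523554 to 1668788, and reads from the mark cannot be given to a strand, so the peaks belong to both loci by position.

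Eip74EF (FBgn0000567) encodes E74, an ETS-domain transcription factor made in a long and a short form from separate promoters. It spans 3L from 17558672 to 17619325 on the minus strand, with 5 transcripts from 3 starts. H3K18ac fell by 1.99 at the peak 857 bases upstream of Eip74EF-RB, the inner promoter region (17577483 to 17578404), from 6.71 in the controls to 4.72. This leaves 25.2% of the control mean, and 8.7% of all lower peaks fell by more. The next peak upstream (17578733 to 17579982), 2107 bases from the same start, had a higher level, 7.17, and went to 6.24, a difference of -0.93. It is wider, and per kb of width its control level was 6.85, against 6.83 at the peak 857 bases upstream. In the intron 13502 bases upstream of the start of Eip74EF-RB, the peak from 17590128 to 17591450 went from 7.22 to 6.15, a difference of -1.07. Neighbouring peaks of 1 promoter thus differed in size of the fall, 25.2% against 52.5% of control remaining, although group means give no error for that gap. The fourth peak, near the 3′ end of the gene (17563721 to 17564535), fell from 6.01 to 4.57 and was assigned to FBgn0086080, which is not in the annotation used here. The outer start, which Eip74EF-RA, Eip74EF-RC and Eip74EF-RE share, is 27875 bases from the nearest listed peak.

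**Figure D2:**
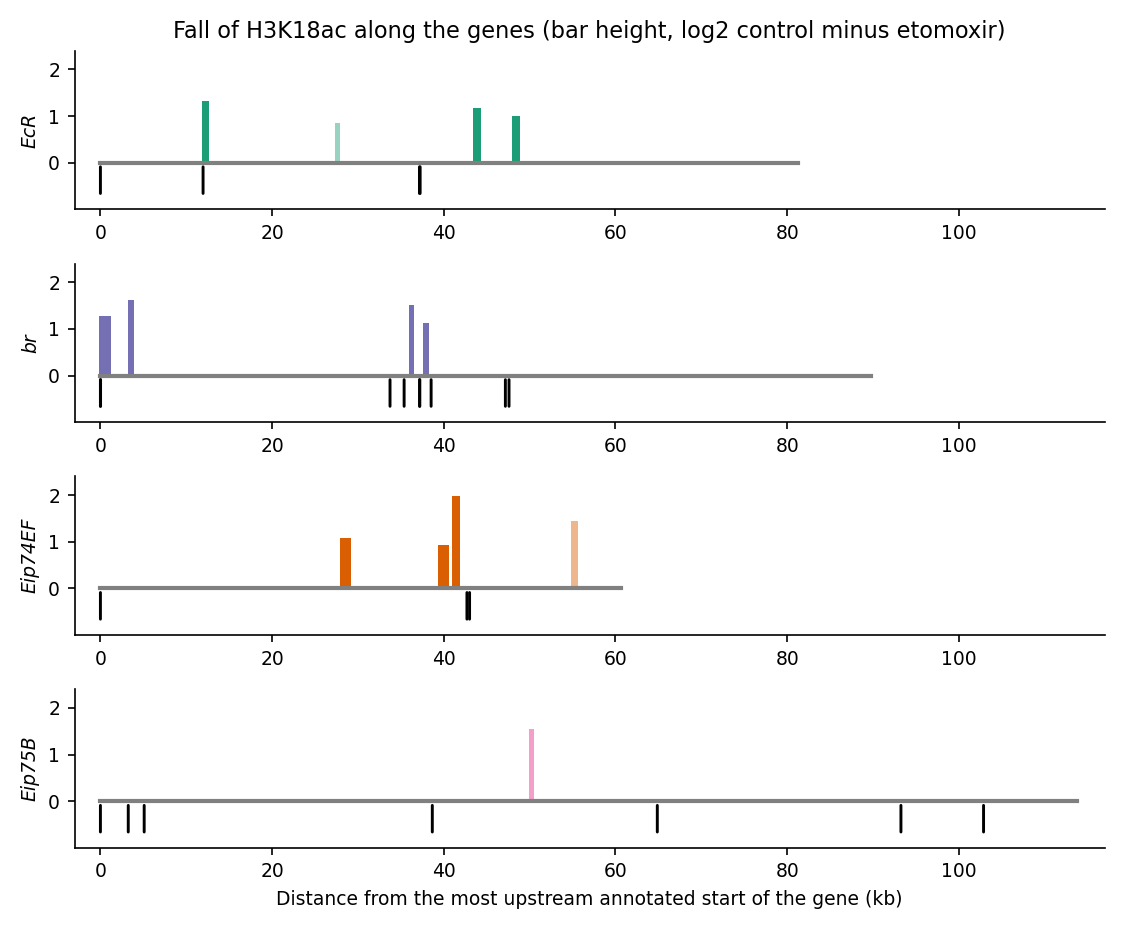
Position and fall of the listed peaks along EcR, br, Eip74EF and Eip75B, as distance in kb from the most upstream annotated start in the direction of transcription. Bars are peaks with their true width, bar height is control minus etomoxir on the log2 scale, pale bars are assigned to other genes, and ticks below the line are transcription starts. A peak covers 3 of the 23 starts, and the tallest bar, for a difference of -1.99, stands just upstream of the inner starts of Eip74EF.

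Eip75B (FBgn0000568) encodes E75, a nuclear receptor with a haem group, and spans 3L from 17950953 to 18064696. The table assigns it no peak, yet an intronic peak (18014226 to 18014778) fell inside it from 5.74 to 4.19. The difference of -1.55 leaves 34.2% of the control mean. It was assigned to FBgn0086081, whose start lies 11148 bases away, against 11254 bases to the start of Eip75B-RG, so a distance of 106 bases decided the assignment. None of the 7 starts of Eip75B lies within 1000 bases of it. Eip78C (FBgn0004865), which encodes the nuclear receptor E78, had no listed peak in or assigned to it, and neither had Eip93F (FBgn0264490), a transcription factor gene of the pupal stages. The same holds for Hr3 (FBgn0000448), the nuclear receptor that activates ftz-f1, and for ftz-f1 (FBgn0001078), which encodes the nuclear receptor that prepares cells for the next pulse. The closest listed peaks outside these 4 genes were 8926, 25027, 33500 and 1554 bases away, in that order. Whether the genes without a listed peak carry H3K18ac in the disc was not analysed here.

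Among themselves, the 13 peaks had control levels from 5.73 to 7.22 and etomoxir levels from 4.11 to 6.24. Eip74EF had the highest control levels at its assigned peaks, 6.71 to 7.22. EcR followed with 6.44 to 6.80 and br with 5.73 to 6.58, and each of these ranges overlaps the next. These levels count the whole peak, and median widths were 1250 bases at Eip74EF, 890 at EcR and 667 at br. Per kb of peak width, the control levels were 6.82 to 6.85 at Eip74EF, 6.47 to 6.97 at EcR and 6.1 to 6.76 at br. The median difference was -1.40 at br, -1.17 at EcR and -1.07 at Eip74EF, and the ranges of differences overlap (-1.62 to -1.13, -1.33 to -1.0 and -1.99 to -0.93). Of the 10 assigned peaks, 6 (60.0%) are annotated as promoter peaks, a class that reaches 3 kb from a start, and 4 are intronic. Among all 2194 lower peaks 62.8% were promoter peaks and 22.1% intronic. The 6 promoter peaks had a median difference of -1.30 and the 4 intronic ones -1.12, with overlapping ranges (-1.99 to -0.93 and -1.62 to -1.0). Over all lower peaks the order was the other way, with -1.12 in promoters and -1.30 outside, where 59.4% of peaks are intronic. None of the 13 peaks overlaps coding sequence, and 3 overlap an exon.

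**Figure D3:**
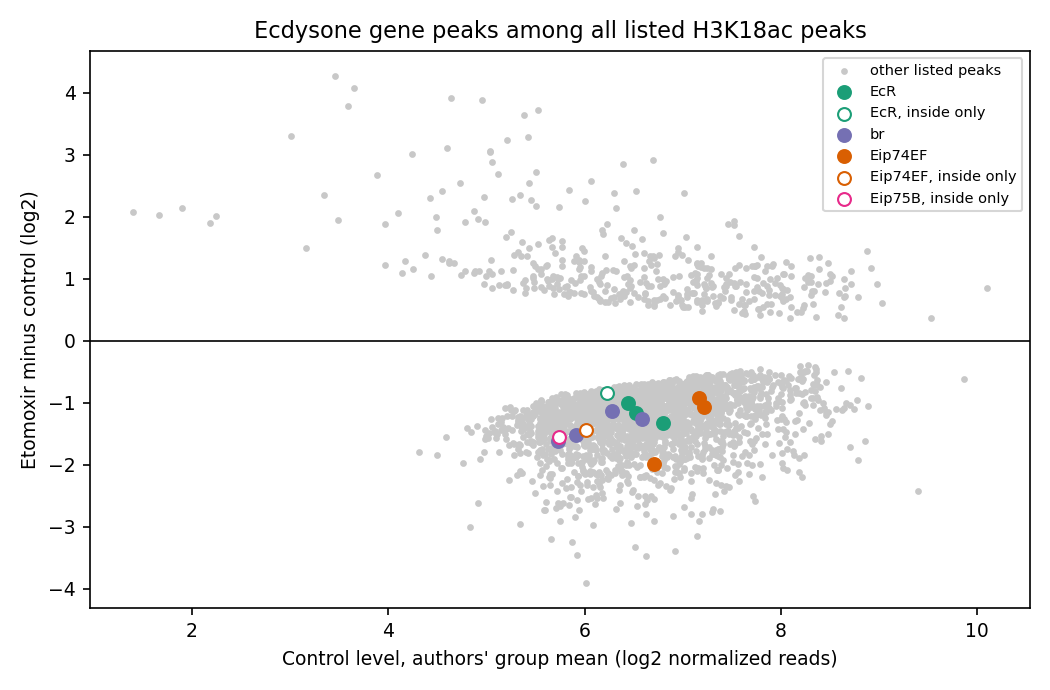
Difference, etomoxir minus control in log2, against the control level of the 2626 listed peaks, with the ecdysone gene peaks in colour. Open circles are the 3 peaks inside EcR, Eip74EF and Eip75B that were assigned to other genes. The coloured points lie within the cloud of lower peaks, at control levels of 5.73 to 7.22.

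The ecdysone gene peaks lay near the middle of all lower peaks in the size of the fall. All 2194 lower peaks had a median difference of -1.19 and quartiles of -1.53 and -0.94, and the 10 assigned peaks had a median of -1.22 and quartiles of -1.47 and -1.09. The median control level was 6.55 at the 10 peaks and 6.60 over all lower peaks, and the median width was 906 against 894 bases. An FDR under 0.001 was reached by 3 of the 10 (1 in each of the 3 genes), against 35.7% of all lower peaks. A fall of at least 1 was listed for 9 of the 10 (90.0%), against 68.9%.

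Within 500 bases centred on each of the 13 peaks, GC content was between 39.0% and 55.2%, with a median of 47.6% against 46.0% over all lower peaks. The half-site AGGTCA or its complement TGACCT occurred in 2 of the 13 windows (15.4%), against 8.89% of all lower peaks. The full palindromic element, AGGTCA and TGACCT parted by 1 base, was found with at most 2 mismatches in 1 window, that of the EcR intronic peak 10690 bases downstream of EcR-RG, and in 0.82% of the windows of all lower peaks. With at most 3 mismatches it was found in 3 of the 13 windows (23.1%), against 10.98% of all lower peaks. GAGAG or CTCTC, counted with overlaps, occurred in 10 of the 13 windows (76.9%), against 60.0%. At Eip74EF, the peak 857 bases upstream and the intronic peak each held 13 such matches, a number that 0.96% of the windows of all lower peaks reach. Some matches are parts of runs, as the printed Eip74EF sequence shows. These shares were not tested, and a match of letters says nothing about a bound factor.

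Another 57 genes, of the pathway or of the nuclear receptor family at large, were listed by role. Of these, 19 (33.3%) had a lower peak and 2 a higher one, where 7.89% of all protein-coding genes had a lower peak. These lists, too, were drawn up with earlier results known, so the share is a description and was not tested. Most of these were among 22 other hormone-responsive genes, of which 11 had lower peaks. Here chinmo, which encodes a BTB zinc-finger factor of early larval stages, had 4 peaks, the strongest falling from 5.96 to 3.53 (-2.43) near its start. At vri, which encodes a bZIP transcription factor, the strongest of 3 peaks fell from 7.21 to 5.08 (-2.13). The primary transcript of let-7-C, which carries microRNAs of the larval to adult transition, had a peak that fell from 5.82 to 4.19 (-1.63). E23, Kr-h1, ImpL2, ImpE2, Eip63E, crol, Sox14 and ab had differences at their strongest peak between -1.51 and -0.91, and the peaks of ImpE2 and Eip63E are close neighbours on 3L. Edg91, a cuticle gene named here for its direction after its values had been seen, had a higher peak, with 5.99 in the controls and 6.75 after etomoxir. Of 9 receptor partners and cofactors, tai, which encodes a coactivator of EcR, had 3 lower peaks. The one over a tai start fell from 6.18 to 4.23, a difference of -1.95. A peak of bon fell from 6.26 to 5.34 (-0.92). Of 15 other nuclear receptor genes, 5 had lower peaks, with the largest fall at a start of knrl, from 5.75 to 3.08 (-2.67). The single peaks of eg (5.09 to 3.63) and tll (6.83 to 5.42) lie upstream of these genes, and svp and kni had 1 lower peak each. Genes of hormone synthesis, uptake and turnover had 1 lower peak among 11 genes, at shd (5.71 to 4.56), the enzyme of the last step of hormone synthesis, and 1 higher peak, at Npc1a (6.47 to 7.36), which acts in sterol transport. The median length of the 57 genes was 8638 bases, so the 32.5% of the long genes is not a matching share for them. The 7.89% of all protein-coding genes was not matched to their lengths either.

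**Figure D4:**
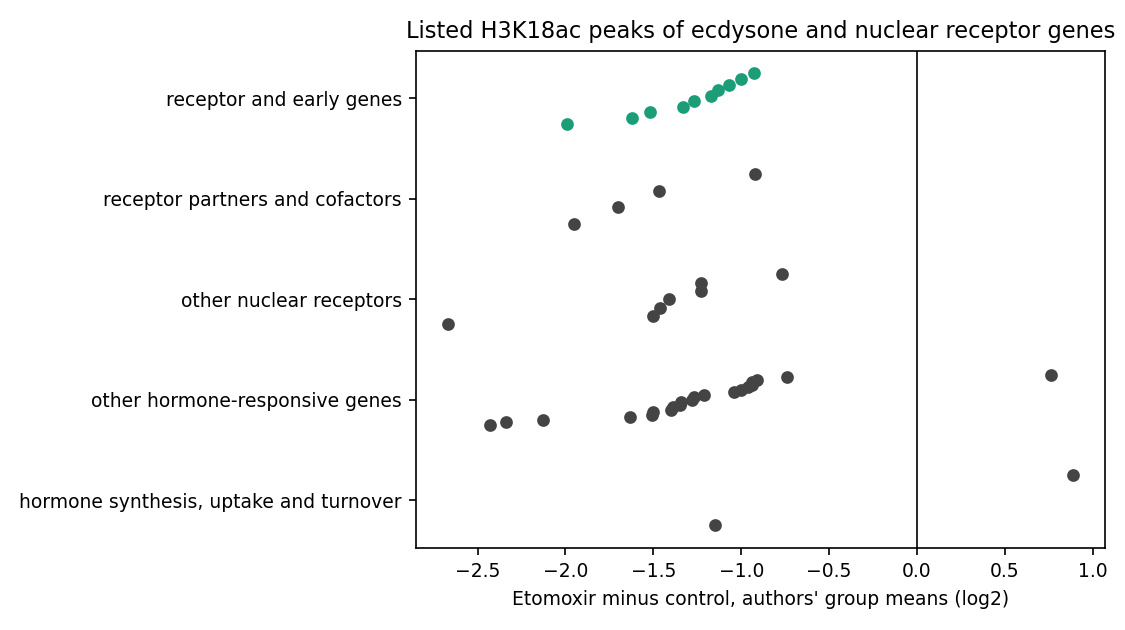
Difference, etomoxir minus control in log2, of each listed peak of the receptor and early genes and of the 4 other lists. Each point is 1 peak, spread vertically for legibility. The 10 peaks of the receptor and early genes lie between -1.99 and -0.93, and the points right of 0 are Edg91 and Npc1a.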

How the data were processed

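The 5 Cut&Run libraries for H3K18ac were grouped by their titles into 3 control and 2 etomoxir libraries. Per the labels and the reporting statement, reads were trimmed (Trim Galore 0.6.3), aligned to dm6 (Bowtie2 2.4.2), freed of duplicates and passed to MACS2 2.1.1.20160309.6, DiffBind 2.10.0 and ChIPseeker 1.18.0 for peaks, group comparison and annotation. The deposited values are log2 mean normalized read counts per peak and group. The overall mean of each peak equals the mean over 3 and 2 libraries within 0.02 at 100% of peaks. The authors' fold changes and p-values, their own comparison, were not used, and the deposited FDR (an adjusted p-value) served only as a filter. Yeast DNA was spiked in, and whether it scaled the values is not given in the sources used here.

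Differences were computed from the group means (Python 3.11.15, pandas 2.3.3, numpy 2.4.6, scipy 1.17.1, matplotlib 3.10.9). Starts were taken as 0-based and raised by 1. Positions were matched to Ensembl release 115 (BDGP6.54), in which 1752 of 1785 gene identifiers were found, and distances to starts were recomputed equal at 100% of peaks. No test between groups could be fitted, because the table holds no value per library. Overlap, distance, motif and interval steps were tested on simulated data. Windows for motifs were 500 bases. The genes and lists were chosen with earlier results of these data known. The named genes are the 9 genes, the listed genes of the other lists (up to 3 of each with values by size of difference, the rest by range), and genes given peaks inside the 9. Alternatives were stricter FDR, a minimum difference or level, other gene assignment, merged peaks, a pseudocount and a stricter promoter.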

Additional observations from a re-analysis of the deposited data

How the results depend on the processing

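No paired analysis was possible because the table holds 1 mean per group and none per library, and for the same reason no library, the directly dissected controls included, could be left out. Of 41 alternative values, 36 were classed as close to the value reported and 5 as moved. The class of close values is wide. It holds a fall from 21 to 15 genes of the other lists and from 3 to 2 peaks assigned elsewhere. Some values could not change, such as the 6 promoter peaks when peaks had to lie within 3000 bases of a start. The tally is therefore no measure of robustness. None could reverse, because a count has no direction and the medians are over peaks that are all lower. The count of genes of the other lists includes the 2 genes with a higher peak. Under an FDR of 0.001 the 10 peaks became 3, all in promoters, so that promoter peaks went from 6 to 3, while EcR, br and Eip74EF each kept 1 peak. The genes of the other lists with a listed peak went from 21 to 10 there, and the 3 peaks inside the genes but assigned elsewhere went to 0. When peaks had to lie within 3000 bases of the assigned start, 6 of 10 remained. The median difference stayed between -1.33 and -1.08 over 8 alternatives, most of which changed the set of peaks. The -1.33 is the median of the 3 peaks left under an FDR of 0.001. A pseudocount of 8 reads, over the same 10 peaks, gave the smallest fall. The alternatives for the peaks assigned elsewhere were chosen after seeing the data. What limits every value is that means without a spread, from libraries of unequal depth, cannot show which peaks of 1 gene differ from each other.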

Other observations

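The listed peak closest to Eip78C, 8926 bases from the gene, belongs to AcCoAS, the gene of acetyl-CoA synthetase, the enzyme that supplies acetyl groups for histones from acetate and is called ACSS2 in the study. It went from 8.20 in the controls to 7.68 after etomoxir, a difference of -0.52. The listed peak closest to ftz-f1, 1554 bases away, is assigned to Nufip and went from 6.23 to 5.24. For Eip75B, the closest listed peak outside the gene is 38168 bases away, at CG5290, and rose from 5.52 to 9.24. AcCoAS, Nufip and CG5290 were chosen after their values were seen.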
